A study of Mus musculus with 18 samples.

Results

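Methylation was examined at the CpGs of the 4 mouse Hox clusters. A CpG was a member if it lay inside the window of a cluster and was covered by at least 5 reads, and the comparisons used the 1534 such CpGs with that coverage in all 18 libraries, of 711980 in the whole data set. On genome build mm9 the windows were chr6:52095001-52225000 for HoxA (130 kb, 453 CpGs), chr11:96050001-96235000 for HoxB (185 kb, 355 CpGs), chr15:102745001-102875000 for HoxC (130 kb, 282 CpGs) and chr2:74495001-74610000 for HoxD (115 kb, 444 CpGs). The member list names 38 Hox genes.

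The libraries came from reduced representation bisulfite sequencing, in which DNA is cut by the enzyme MspI at CCGG and unmethylated cytosines are converted before reading, so that mainly CpG-rich DNA is measured. C57BL/6 females gave mammary epithelial cells of 3 labelled types, stem, progenitor and mature, with no allele or agent named. There were 6 stages: virgins at week 3 and week 9, pregnancy at days 10, 16 and 19, and retired breeders, whose age is not in the labels. Each cell type gave 1 library per stage, hence 2 virgin, 3 pregnant and 1 retired library. Nothing in the labels says whether libraries came from separate or pooled animals, or whether cell types of one stage shared animals, so differences are read against the spread between these libraries. The cell type labels could not be checked against marker genes, since no promoter of 5 basal, 6 mature luminal and 5 other-cell markers was measured. Of 4 luminal progenitor markers only the promoter of Kit, a receptor tyrosine kinase, was, at 0.164% ± 0.339 (SD, n = 18) over 3 CpGs.

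Hox genes encode homeodomain transcription factors that give cells their position along the body axis, and their order along each chromosome follows the order of the body regions in which they act. In cells where they are silent they are typically held by Polycomb complexes rather than by DNA methylation, and the clusters are known for long stretches of unmethylated CpG-rich DNA. In the mammary gland, mice lacking Hoxa9, Hoxb9 and Hoxd9 together fail to develop a normal gland in pregnancy. Loss of HOXA5 with methylation of its promoter is known from breast cancers.

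Sequences are shown for 4 promoters that bear the contrasts described below. Each is the stretch of 250 bases before the annotated start, from RefSeq sequences on GRCm38.p6, with CpGs measured in all 18 libraries in capitals. Hoxa5 and Hoxa6 pattern the neck and chest region, Hoxd10 the lower spine and hindlimb, and Hoxd11 the forelimb and kidney. Hoxa5 carried methylation within the printed stretch, Hoxa6 and Hoxd10 farther upstream of it, and Hoxd11 almost none.
Hoxa5: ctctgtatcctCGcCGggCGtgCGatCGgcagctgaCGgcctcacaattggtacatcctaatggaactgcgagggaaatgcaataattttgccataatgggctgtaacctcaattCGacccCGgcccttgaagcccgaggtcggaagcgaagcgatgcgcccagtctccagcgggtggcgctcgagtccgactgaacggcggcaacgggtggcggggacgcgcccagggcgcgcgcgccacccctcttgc
Hoxa6: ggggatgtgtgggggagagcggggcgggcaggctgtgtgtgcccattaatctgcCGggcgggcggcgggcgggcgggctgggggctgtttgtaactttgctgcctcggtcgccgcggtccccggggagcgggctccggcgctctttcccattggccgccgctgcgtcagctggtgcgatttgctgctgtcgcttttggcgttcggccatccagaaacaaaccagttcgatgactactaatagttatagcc
Hoxd10: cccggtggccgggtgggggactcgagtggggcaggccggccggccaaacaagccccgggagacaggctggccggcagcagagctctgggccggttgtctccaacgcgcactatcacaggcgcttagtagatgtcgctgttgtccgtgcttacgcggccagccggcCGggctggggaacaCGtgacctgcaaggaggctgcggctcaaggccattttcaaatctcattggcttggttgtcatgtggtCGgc
Hoxd11: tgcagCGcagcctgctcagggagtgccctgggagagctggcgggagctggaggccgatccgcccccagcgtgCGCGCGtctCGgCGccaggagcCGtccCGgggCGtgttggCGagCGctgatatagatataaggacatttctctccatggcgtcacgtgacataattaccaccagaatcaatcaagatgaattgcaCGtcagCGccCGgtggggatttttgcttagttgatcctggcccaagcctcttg
Read in the printed direction, the 8 capital CpGs of Hoxa5 had mean levels of 25.1%, 6.36%, 22.0%, 19.3%, 14.5%, 21.5%, 1.58% and 7.96% over the 18 libraries. Methylation there was uneven between CpGs a few bases apart. In Hoxd11 the 14 capital CpGs lay between 0.0896% and 2.71%. The capital CpG of Hoxa6 was at 0.969%. Of the 38 genes, 22 had an entry in the promoter table, with 24 promoters. The table has no entry for Hoxa4, Hoxb2, Hoxb3, Hoxb5, Hoxb6, Hoxb7, Hoxb9, Hoxb13, Hoxc5, Hoxc6, Hoxc8, Hoxc9, Hoxc10, Hoxc11, Hoxc12 and Hoxc13. The Hox promoters, 300 bases each, held a median of 14.5 CpGs against 7 over all 32851 promoters of the table. The letters CCGG, which read the same on both strands, were found in 19 of 24 (79.2%) against 52.8% of all promoters.

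All 4 clusters were lowly methylated in every library. Mean CpG methylation over the 18 libraries was 6.96% ± 0.644 (SD, n = 18) in HoxA, 11.1% ± 1.19 in HoxB, 8.12% ± 1.12 in HoxC and 5.62% ± 0.775 in HoxD, against 50.5% ± 0.523 at the other CpGs. Of the Hox CpGs, 81.9% were below 10% on average and 0.978% were above 80%, whereas the shares elsewhere were 37.2% and 43.8%. The share below 10% was 87.4% in HoxD, 84.1% in HoxA, 78.0% in HoxC and 75.2% in HoxB. HoxB held 11 of the 15 Hox CpGs above 80%. Neighbours in the order of cluster means overlapped in their ranges over libraries. HoxB ran from 8.90 to 13.6%, HoxC from 6.17 to 10.0%, HoxA from 5.95 to 8.05% and HoxD from 4.49 to 7.21%. Within every library HoxB was the highest, most narrowly above HoxC in day 16 stem (9.63 against 9.24%). The order of HoxC, HoxA and HoxD changed between libraries, as in day 19 progenitor (6.17%, 7.03% and 7.21%).

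Reads at these CpGs were summed in tiles of 1000 bp with at least 3 shared CpGs. There were 167 such tiles in the Hox windows, 45 each in HoxA and HoxB, 36 in HoxC and 41 in HoxD, which held 1462 of the 1534 CpGs, and 77064 in all. Of the Hox tiles 129 (77.2%) had a mean level below 10%, 20 were between 10 and 20%, 17 between 20 and 80% and 1 above 80%. Because low methylation goes with CpG density, Hox tiles were set beside other autosomal tiles with a like number of shared CpGs. That number depends on coverage as well as on density, so density is matched only in part. The Hoxa13 promoter, for instance, held 45 CpGs in 300 bases, of which 5 were shared. With 3 to 9 CpGs the mean was 10.7% in 121 Hox tiles and 62.9% in 58747 others, a difference of -52.2 points ± 1.23 (SD of 18 libraries). With 10 to 19 CpGs it was 4.48% against 29.0% (30 Hox tiles), and with 20 or more 3.25% against 13.3% (16 Hox tiles). The mean was lower in the Hox tiles in 18 of 18 libraries in each class. The medians went the other way in tiles with 10 or more shared CpGs. They were 3.28% against 0.976% with 10 to 19 CpGs and 2.48% against 0.321% with 20 or more, with Hox tiles the higher in 18 of 18 libraries. Among other tiles 13.1% exceeded 80% with 20 or more CpGs, and 28.2% with 10 to 19. None of the 16 and 30 Hox tiles of these classes did, though 16 tiles are few. With 20 or more CpGs the median Hox tile stood about 2.16 points (± 0.612) above the median of other tiles.

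Along each cluster the low level was broken at a few places. The plot of tiles along the clusters shows where. In HoxA 19 of 23 measured segments of 5 kb were below 10%. The exceptions were the segment 25 to 30 kb into the window (30.6%, 7 CpGs) and the stretch from 50 to 65 kb (84.0%, 13.8% and 17.4%, on 1, 55 and 20 CpGs). The 13 measured segments from 65 kb on were between 1.34 and 7.07%. That far end holds the starts of Hoxa11 and Hoxa13. In HoxB 16 of 28 measured segments were below 10%. Its methylated places were spread out, at 35 to 45 kb (89.3% and 59.5%, on 3 and 6 CpGs) and 60 to 65 kb (26.5%, 15 CpGs). Others were at 120 to 130 kb (22.5% and 24.1%, on 14 and 9 CpGs) and 155 to 160 kb (22.4%, 22 CpGs). Between them lay segments such as 80 to 85 kb, with 55 CpGs at 3.24%, and 160 to 165 kb, with 14 CpGs at 0.599%.

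HoxC had 12 of 22 measured segments below 10% and only 1 above 20%, at 110 to 115 kb (20.4%). Its first 9 measured segments, up to 50 kb, lay between 1.63 and 10.7%. In HoxD 15 of 21 measured segments were below 10%. Between the starts of Hoxd13 and Hoxd9, at 11.3 and 40.8 kb, no segment exceeded 5.78%. Its methylated block lay at 60 to 75 kb (31.3%, 39.5% and 23.2%, on 5, 3 and 13 CpGs), between the placed starts of Hoxd3 at 55 kb and Hoxd1 at 106 kb. The starts of Hoxd4 and Hoxd8 were not placed, so the position of the block relative to them is not known here. Past the block the level was 10.0% at 75 to 80 kb and 2.46% around the start of Hoxd1. The segment at 100 to 105 kb (95.0%) rests on 1 CpG, as does that of HoxA at 50 to 55 kb.

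**Figure D1:**
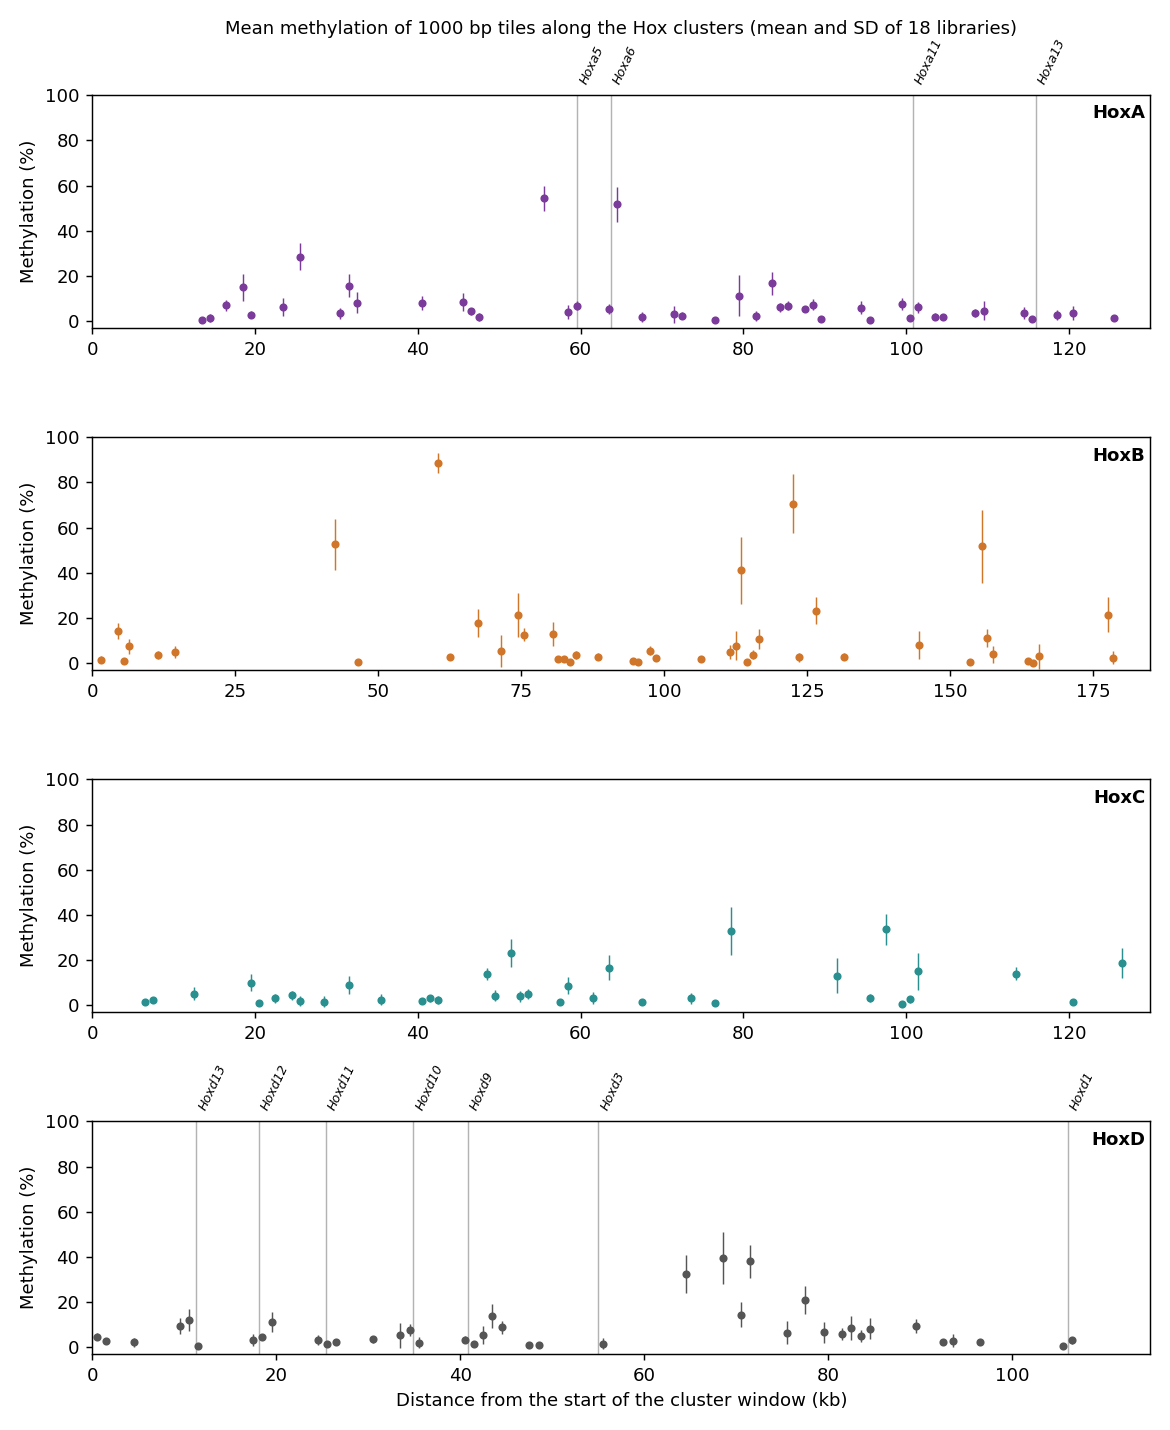
Mean methylation (%) of each 1000 bp tile against its distance from the start of the cluster window (kb), 1 panel per cluster; points are means and bars SDs over 18 libraries, and grey lines mark the 11 placed gene starts. Most tiles lie below 10%, with isolated higher tiles in HoxA, HoxB and HoxC and a block at 64 to 72 kb in HoxD.

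The most methylated tiles were named by level in each cluster. In HoxB they were chr11:96110001-96111000 (88.6% ± 4.54, SD, n = 18), chr11:96172001-96173000 (70.7% ± 13.0) and chr11:96092001-96093000 (52.7% ± 11.4). In HoxA they were chr6:52150001-52151000 (54.3% ± 5.59), chr6:52159001-52160000 (51.7% ± 7.89) and chr6:52120001-52121000 (28.6% ± 6.09). In HoxC chr15:102842001-102843000 (33.7% ± 6.86) and chr15:102823001-102824000 (33.0% ± 10.7) led, and in HoxD chr2:74563001-74564000 (39.5% ± 11.5) and chr2:74566001-74567000 (38.1% ± 7.23). The tile at chr6:52159001-52160000 was centred 830 bp upstream of the placed start of Hoxa6. The 2 HoxD tiles were centred 13450 and 16450 bp downstream of the nearest placed start, that of Hoxd3, and an unplaced start may lie nearer. The most variable of these tiles were also thinly read in places. At chr2:74563001-74564000 the lowest library was retired progenitor (19.5%, 77 reads) and the highest day 16 progenitor (69.6%, 46 reads). A further HoxB tile, chr11:96163001-96164000 (41.1% ± 14.7), ran from 3.70% in the day 19 stem library (54 reads) to 59.7% in the retired mature library (67 reads), with the other 17 libraries at 24.3% or above. Tiles of HoxB and HoxC have no gene position here, since no start was placed in those clusters. No annotation of build mm9 was used, so exons, introns and UTRs of the tiles are not given.

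Gene starts could be placed on mm9 for 11 Hox genes, by matching the spacing of CpGs in the promoter sequence to the CpG positions in the files. A promoter below means the shared CpGs within 1000 bp of such a start. Hoxa2, Hoxa3, Hoxa7, Hoxa9, Hoxa10, Hoxb1, Hoxb4, Hoxb8, Hoxc4, Hoxd4 and Hoxd8 had a promoter entry but no placed start. All but 1 of the 11 promoters averaged below 10%. Such levels were common to promoters here. Of 6722 other placed promoters 94.4% were below 10%, against 87.5% of the 8 Hox promoters placed by the same rule. In the 500 bp after the start no Hox promoter with measured CpGs there averaged above 7.03%, as the plot of CpGs around the starts shows. The genes are taken from the anterior to the posterior end of the axis.

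Hoxd1, of the anterior group that patterns the hindbrain in its paralogs, averaged 2.69% ± 1.20 (SD, n = 18, 34 CpGs). Hoxd3, which patterns the first vertebrae, averaged 1.71% ± 2.58 over 10 CpGs; its median was 1.11%, and the retired mature library stood alone at 11.5%. Hoxa5 averaged 6.41% ± 1.96 over 45 CpGs. Its level was concentrated in the 10 CpGs of the 500 bp before the start, at 15.6% ± 4.88, against 3.53% ± 1.87 at the 20 CpGs of the 500 bp after it.

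Hoxa6 had the highest promoter level, 16.7% ± 3.62 over 20 CpGs, with a lowest library of 10.8% (day 19 progenitor), a median of 16.3% and a highest of 23.4% (day 16 mature). The level came from one side. The 5 CpGs between 1000 and 500 bp upstream averaged 52.1% ± 8.31 and never fell below 35.0% in a library. The 6 CpGs of the last 500 bp before the start averaged 4.01% ± 3.67 and never rose above 14.7%. Over the 18 libraries the 2 ranges did not overlap.

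Hoxd9, one of the group needed together for the gland in pregnancy, averaged 2.30% ± 0.813 over 38 CpGs. Hoxd10 averaged 7.17% ± 2.72 over 20 CpGs, from 3.68% in the week 3 stem library to 15.7% in the retired progenitor library, with a median of 6.61%. Its 8 CpGs between 1000 and 500 bp upstream were at 12.3% ± 3.40, and the 9 CpGs of the next 500 bp at 3.33% ± 1.50. Hoxa11, known for the limb and the uterus, averaged 3.90% ± 1.33 and its paralog Hoxd11 1.94% ± 0.786 over 61 CpGs. Hoxd12, expressed in the distal limb, averaged 4.62% ± 1.21. The most posterior genes, Hoxa13 and Hoxd13, which pattern digits and the urogenital tract, averaged 1.00% ± 0.770 and 3.19% ± 1.70. At Hoxd13 the 4 CpGs between 1000 and 500 bp upstream were at 11.8% ± 4.12, and the 11 CpGs of the 500 bp after the start at 0.816% ± 0.816.

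**Figure D2:**
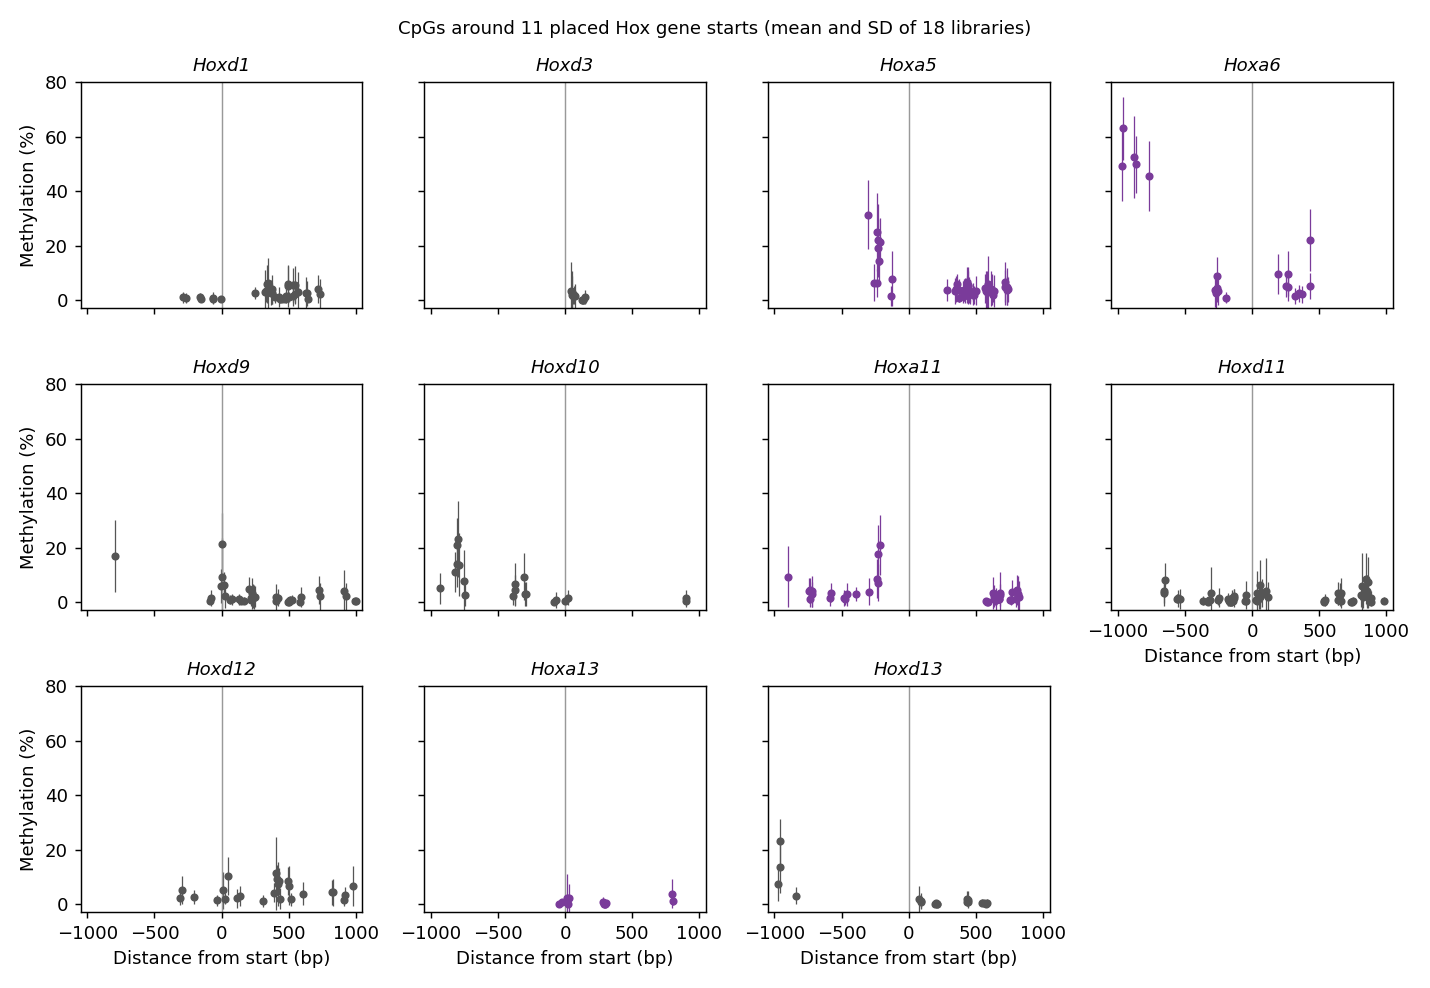
Methylation (%) of each shared CpG against its distance from the placed start (bp, negative is upstream) for 11 Hox genes; points are means and bars SDs over 18 libraries. The 5 CpGs far upstream of Hoxa6 average 52.1%, and raised CpGs also lie upstream of Hoxa5, Hoxd10 and Hoxd13, while CpGs after the starts are mostly below 10%.

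The 8 Hox promoters placed by a match unique on the chromosome averaged 4.99% ± 1.02 (SD, n = 18), against 2.43% ± 0.161 for 6722 other promoters placed in the same way. They were higher by 2.56 points (± 0.913) and in 18 of 18 libraries, which measure the same 8 promoters each time. Hoxa6 at 16.7% raised that mean, while the others of the 8 lay between 1.00% (Hoxa13) and 7.17% (Hoxd10). The medians over promoters were 2.49% and 0.270%. Like 94.4% of the 6722 other promoters, the measured promoters of genes that act with or on Hox genes averaged below 10%. Of 9 cofactor genes, which help Hox proteins bind DNA, 2 were measured, Pbx2 at 1.67% ± 0.725 and Meis3 at 0.0815% ± 0.194. Of 20 regulators 7 were measured: the Polycomb genes Suz12, Ring1, Rnf2, Bmi1, Cbx7 and Phc2, and Kmt2a, a methyltransferase that keeps Hox genes active. They lay between 0.117% (Rnf2) and 0.532% (Ring1).

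The Hox windows kept their level across cell types and stages, within a few points. Over 6 libraries each, HoxA averaged 6.91% ± 0.728 (SD) in stem, 7.01% ± 0.661 in progenitor and 6.97% ± 0.663 in mature cells. HoxC averaged 8.42% ± 1.55, 7.59% ± 0.962 and 8.34% ± 0.623, and HoxD 5.87% ± 0.720, 5.83% ± 0.826 and 5.17% ± 0.683. In these 3 clusters cell types differed by less than 1 point in the mean, and the ranges of their libraries overlapped. By stage, HoxC was lower in progenitor than in mature cells at 5 of 6 stages, and HoxD was lower in stem than in mature cells at 1 of 6. HoxB averaged 10.2% ± 0.831 in stem, 12.0% ± 1.06 in progenitor and 11.1% ± 0.950 in mature cells. Progenitor libraries were above mature libraries at 6 of 6 stages and above stem libraries at 5 of 6, the exception being week 3. The ranges still overlapped, stem libraries lying between 8.90 and 11.1%, progenitor between 10.9 and 13.6% and mature between 9.90 and 12.7%. The spread between cell types in HoxB, 1.86 points, was 1.34 points without the tile at 155 kb described below. It was 1.38 points with any CpG covered in a library and 1.18 points with reads pooled over CpGs.

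**Figure D3:**
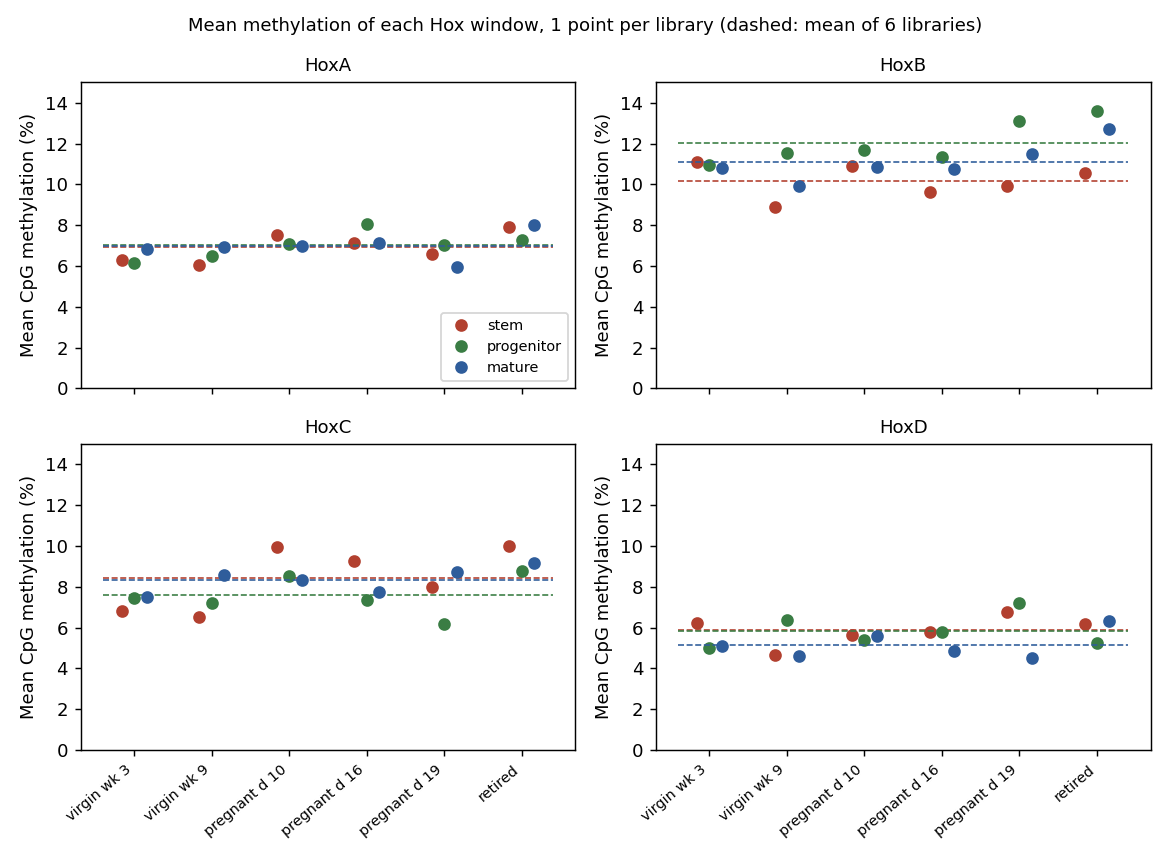
Mean CpG methylation (%) of each Hox window by stage, 1 point per library and coloured by cell type, with dashed lines at the mean of 6 libraries. In HoxB the progenitor points lie above the mature points at 6 of 6 stages, and in HoxC below them at 5 of 6.

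The tile left out there, chr11:96205001-96206000, lies 155 kb into the window and was the most variable of HoxB; its cell types were compared after its values were seen. It had 7 CpGs and at least 101 reads in a library. In stem cells it was 61.1% and 29.8% in the virgin libraries of weeks 3 and 9, 24.3%, 29.5% and 25.7% at pregnancy days 10, 16 and 19, and 42.3% in retired breeders. In progenitor cells the same stages gave 52.3%, 61.8%, 60.9%, 60.7%, 60.4% and 67.2%. In mature cells they gave 73.0%, 39.1%, 49.2%, 62.6%, 60.0% and 73.3%. Stem libraries were lower than mature libraries at 6 of 6 stages and lower than progenitor libraries at 5 of 6. The difference was -25.1 points from progenitor and -24.1 points from mature cells. Neither passed the test over all tiles (adjusted p = 0.255 and 0.237, quasi-binomial model with Benjamini-Hochberg adjustment).

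Calling a tile took a difference of 10 points or more with an adjusted p under 0.05. Between cell types no Hox tile was called, and none of all 77064 tiles was either (0% in each of the 3 comparisons). At an unadjusted p under 0.05 15 Hox tiles differed for stem minus progenitor (background 9.34%), 27 for stem minus mature (11.1%) and 19 for progenitor minus mature (5.98%). The limma alternative called none.

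The study was set up around pregnancy, as its title says. In stem cells 1 of 167 Hox tiles was called, against 310 of 77064 tiles (0.402%), so the share of Hox tiles (0.599%) was near the background. That tile, chr11:96172001-96173000, lies 122 kb into HoxB and holds 4 CpGs, with 60 to 482 reads in a library. In stem cells it was 47.6% and 42.4% methylated in the virgin libraries of weeks 3 and 9, 81.9%, 82.5% and 81.4% at days 10, 16 and 19, and 86.7% in retired breeders. All 3 pregnant libraries lay above both virgin libraries, and so did the retired library. The rise was 36.9 points (virgin 45.0% ± 3.66, pregnant 82.0% ± 0.557; adjusted p = 0.0371 in the quasi-binomial model). Each of the 4 CpGs was higher in pregnant than in virgin stem libraries on average, from 56.1 to 72.4%, 53.6 to 91.5%, 45.6 to 90.4% and 29.5 to 67.4%.

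In progenitor cells the same tile was 66.5% and 57.8% in virgin, 74.2%, 76.7% and 59.3% in pregnant and 84.8% in retired libraries. In mature cells it was 64.1% and 78.6%, then 81.3%, 74.0% and 71.3%, and 60.9%. In both, virgin and pregnant libraries overlapped. The differences were 7.90 and 4.18 points and were not called. The rise in stem cells exceeded that in mature cells by 32.8 points (adjusted p = 0.161) and that in progenitor cells by 29.0 points (adjusted p = 0.273), so the test did not separate the cell types. The call in stem cells depended on the fit. It was not made by limma (36.9 points, adjusted p = 0.0728), with reads thinned to the shallowest library (33.6 points, 0.0764), with any covered CpG (27.9 points, 0.0821) or in the files of 4 columns alone (37.2 points, 0.0701). Limma and thinned reads called none of all 77064 tiles.

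**Figure D4:**
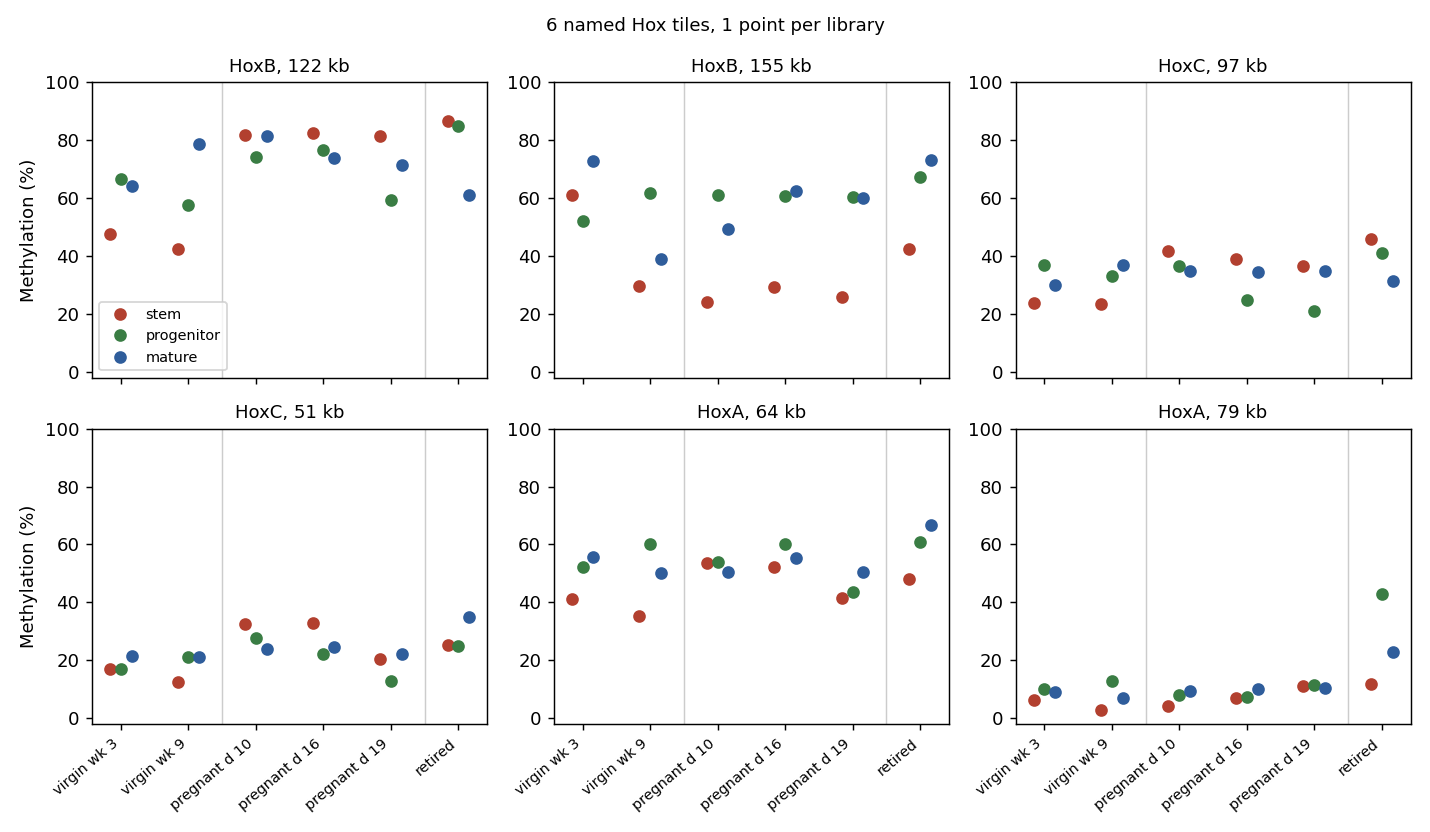
Methylation (%) of 6 named Hox tiles by stage, 1 point per library and coloured by cell type; grey lines part virgin, pregnant and retired libraries. At HoxB 122 kb the virgin stem points (47.6% and 42.4%) lie below all other points, and at HoxB 155 kb stem points lie below the mature points at all 6 stages.

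Other stem tiles with middle levels also stood higher in pregnancy without being called. At chr15:102842001-102843000 in HoxC the virgin stem libraries were at 23.7% and 23.6% and the pregnant ones at 41.9%, 39.1% and 36.6%, with 45.8% in retired breeders. The groups did not overlap, and the difference of 15.6 points had an adjusted p of 0.0846. At chr15:102796001-102797000 the virgin values were 16.9% and 12.5% and the pregnant values 32.5%, 32.9% and 20.5% (14.0 points, adjusted p = 0.0756). Upstream of Hoxa6, chr6:52159001-52160000 was at 41.1% and 35.3% in virgin and at 53.5%, 52.3% and 41.4% in pregnant stem libraries (10.8 points, adjusted p = 0.141). The lowly methylated HoxB tile chr11:96148001-96149000, with 18 CpGs, was at 1.06% and 1.12% in virgin and 2.47%, 5.79% and 3.60% in pregnant stem libraries (2.86 points, adjusted p = 0.0656). Some tiles went the other way. The largest fall, -18.9 points, was at chr11:96205001-96206000, the HoxB tile described above, where the 3 pregnant stem values were each under the lower virgin one (adjusted p = 0.532). The tile chr11:96110001-96111000 was at 91.7% and 92.0% in virgin and 76.5%, 92.7% and 81.5% in pregnant stem libraries.

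Over the 167 Hox tiles, 103 were higher and 62 lower in pregnant stem libraries, with a median difference of 0.428 points, while the median of all tiles was -0.221 points. At an unadjusted p under 0.05 there were 29 Hox tiles (17.4%, background 14.3%), 22 of them higher (background 4.17%) and 7 lower (10.2%). Low tiles, which make up most of the Hox tiles, have their own background. Of the 129 Hox tiles under 10% 16 reached that p (background of such tiles 11.4%), 11 higher (2.31%) and 5 lower (9.12%). Of the 38 at 10% or more 13 did (15.5%), 11 higher (4.89%) and 2 lower (10.6%). Levels inside these classes were not matched. With 20 or more CpGs, for instance, the median Hox tile was at 2.48% and the median other tile at 0.321%. In 30 Hox tiles all pregnant stem libraries lay above all virgin ones (18.0%, background 8.06%) and in 16 all lay below (9.58%, background 18%). The 30 tiles were 9 in HoxA, 5 in HoxB, 8 in HoxC and 8 in HoxD. Among the 38 Hox tiles with a mean of 10% or more, a class set after the values were seen, 14 lay above and 3 below without overlap. The background for all tiles at 10% or more was 10% above and 18.4% below. The median difference of the 38 Hox tiles was 3.98 points, against -0.653 points over all tiles at 10% or more. That background is not matched in level. Of the tiles outside Hox, 36071 were above 80%, 17062 at 20 to 80% and 2251 at 10 to 20%, against 1, 17 and 20 Hox tiles. Of the 129 Hox tiles with a mean under 10%, 16 lay above (background 3.1%) and 13 below (17.1%). Tiles were not independent, since neighbours share fragments and libraries. Reads were fewer in pregnant stem libraries, with medians of 321, 177 and 250 per Hox tile against 408 and 480 in virgin ones, and the part of depth in these counts was not tested beyond the thinning above.

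**Figure D5:**
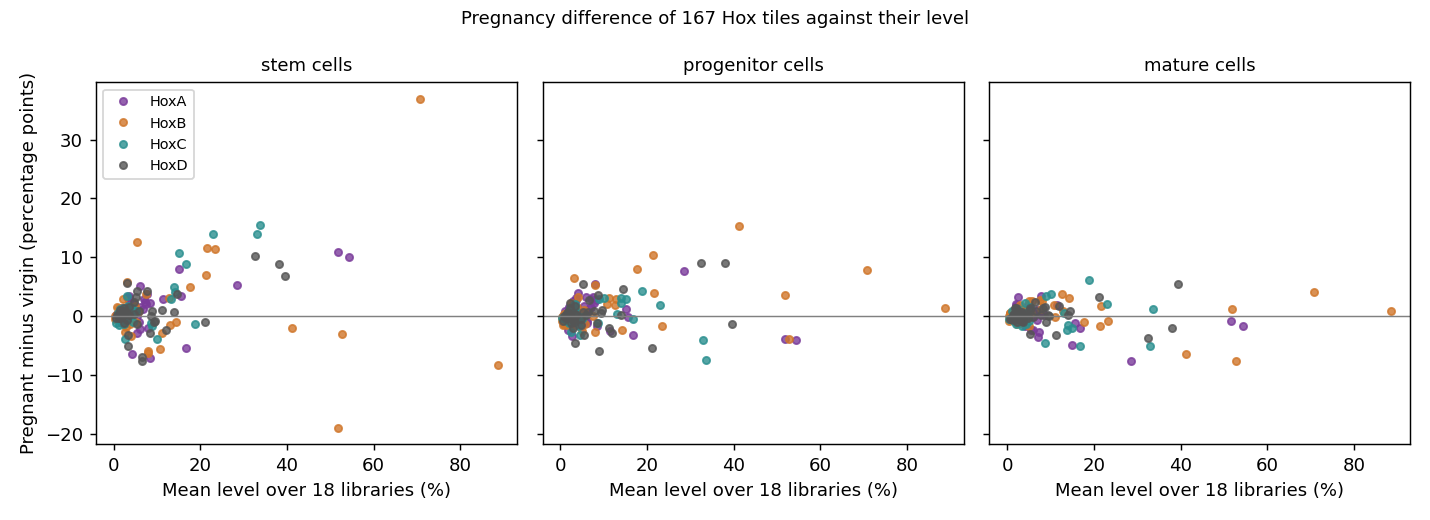
Pregnant minus virgin methylation (percentage points) of the 167 Hox tiles against their mean level over 18 libraries (%), 1 panel per cell type and 1 point per tile, coloured by cluster. In stem cells most tiles between 10 and 60% lie above 0 and one HoxB tile reaches 36.9 points; in the other panels points lie on both sides of 0.

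In progenitor cells no Hox tile and no tile at all was called (0%), and in mature cells likewise (0%). At an unadjusted p under 0.05 there were 11 Hox tiles in progenitor cells (background 3.72%), 3 higher (1.93%) and 8 lower (1.79%). In mature cells there were 11 (5.07%), 6 higher (2.21%) and 5 lower (2.86%). Limma called none in either. Pregnant and virgin progenitor libraries did not overlap in 15 tiles upward (background 7.89%) and 15 downward (8.24%). In mature cells there were 15 upward (6.57%) and 14 downward (8.72%). The median differences were 0.202 and 0.159 points. One of the 2 tiles with the smallest p in progenitor cells was chr2:74512001-74513000, 570 bp upstream of the placed start of Hoxd12. It was at 3.18% and 9.21% in virgin progenitor libraries and at 1.79%, 0% (0 of 59 reads, which allows up to 5.08%) and 3.19% at days 10, 16 and 19, so the groups overlapped. In stem cells it was at 7.29% and 7.17% in virgin and 3.17%, 2.02% and 1.15% in pregnant libraries, without overlap (-5.12 points, adjusted p = 0.252). No Hox tile was called for the difference in the pregnancy effect between stem and progenitor or between stem and mature cells (0% of all tiles in both). At an unadjusted p under 0.05 there were 23 (background 10.5%) and 27 Hox tiles (11.5%), and limma called none.

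As window means, HoxC in stem cells moved most with pregnancy, from 6.66% ± 0.216 (virgin, n = 2) to 9.07% ± 0.989 (pregnant, n = 3), with 10.0% in the retired library. The virgin values were 6.81% and 6.50% and the pregnant values 9.97%, 9.24% and 8.01%, with no overlap. HoxA in progenitor cells went from 6.31% ± 0.245 to 7.38% ± 0.581, also without overlap. HoxA in stem cells went from 6.16% ± 0.182 to 7.08% ± 0.457, again without overlap. The other 9 pregnancy differences of window means lay between -0.207 and 0.808 points. With 3 libraries against 2 an exact permutation p cannot fall below 0.1, so no such difference could be called.

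None of the 8 Hox promoters was called in any of 7 comparisons, and of 6730 promoters 1 was called, for retirement (0.0149%), and 0 (0%) elsewhere. At an unadjusted p under 0.05 there was 1 Hox promoter for pregnancy in stem cells (background 10.8%), 0 in progenitor (6.06%) and 1 in mature cells (5.81%). There were 0 for stem minus progenitor (9.79%), 1 for stem minus mature (10.5%), 1 for progenitor minus mature (6.52%) and 0 for retirement (5.04%). The largest Hox promoter difference with pregnancy was that of Hoxd10 in stem cells, 4.04 points, from 3.68% and 6.53% in virgin to 10.3%, 8.98% and 8.13% in pregnant libraries (adjusted p = 0.245). These groups did not overlap, and the retired stem library was at 4.34%. In the cofactor and regulator lists 0 of 9 measured promoters were called in each of the 7 comparisons of the quasi-binomial model.

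Retired breeders were compared with virgin mice over the 3 cell types. No Hox tile was called, as no tile was in the whole table (0%). At an unadjusted p under 0.05 there were 17 Hox tiles (background 5.27%), 14 of them higher (background 3.47%) and 3 lower (1.8%). Limma called 38 of the 77064 tiles and no Hox tile. The median difference was 0.668 points over Hox tiles and -0.0269 points over all tiles. At chr6:52174001-52175000 in HoxA, virgin and pregnant libraries of every cell type lay between 2.99 and 12.7%. The retired libraries were at 11.7% in stem, 43.0% in progenitor and 22.7% in mature cells, from 111, 86 and 66 reads. The retired libraries were the shallowest group, with medians of 157, 112 and 114 reads per Hox tile. With reads thinned to the shallowest library, the median retired minus virgin difference over Hox tiles was 0.742 points. That fit called 0 of 77064 tiles. The part of depth in these differences was not tested further. At chr6:52174001-52175000 the 4 other libraries deposited with 6 columns, as the retired ones were, stood at 7.27% (day 16 progenitor) and at 11.3%, 11.6% and 10.4% (day 19 stem, progenitor and mature).

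Total reads ran from 17513287 to 117922522 per library, and the median coverage of a CpG from 10 to 70. Within the Hox windows the median over shared CpGs was 15 to 101 reads in a library, close to the 14 to 94 elsewhere. Per library 2378 to 3203 of the Hox CpGs reached 5 reads. Intervals and floors cover counting error only, since reads may be copies of one molecule.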

How the data were processed

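DNA methylation was measured by multiplexed reduced representation bisulfite sequencing in 18 libraries, per the labels' protocols. The deposited files list, per CpG on build mm9 (per the submitters' processing notes), the count of methylated reads over all reads; 7 of the 18 files have 6 columns and also hold a score that the authors deposited, equal to 1000 times the methylated share within rounding, used only for a check. For the aligner, the caller, duplicates and filters, nothing is given in the sources used here.

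Tiles of 1000 bp summed the reads of CpGs covered at least 5 times in every library, with 3 or more such CpGs. All 77064 tiles were fitted with a quasi-binomial logistic regression (likelihood-ratio F test, dispersion moderated across tiles as in limma and held at 1 or above, Benjamini-Hochberg over all tiles of a comparison). Pregnancy and retirement were tested in a model of 9 groups of cell type by state, and cell types in a model of cell type and stage. Calls needed an adjusted p under 0.05 and 10 points. On simulated counts the unadjusted p ran above its nominal rate where noise grew with depth, more so for tiles under 10%, which are commoner among Hox tiles, so unadjusted counts are a description and their shares are not strictly comparable with the background.

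Gene starts were placed where at least 6 consecutive CpGs of a RefSeq promoter (GRCm38.p6) matched the listed CpGs at a unique position of the chromosome (6921 of 32851 promoters, 8 Hox). For 3 more, Hoxd12, Hoxd13 and Hoxa11, at least 5 CpGs matched within the cluster window, a rule added after seeing the data. They entered no main test, only an alternative fit of the promoters. Of 6902 neighbouring placed starts 97.3% had the spacing of the reference table within 10 bp, as did 9 of 9 Hox pairs.

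The named tiles were those called, the 3 highest and 3 most variable of each cluster, and the 2 with the smallest p per pregnancy comparison; not all are described. Further lists held cofactors, regulators and cell type markers, of which the basal, mature luminal and other-cell lists had no measured promoter. Members and lists were chosen with earlier results of these data known, so the planned permutation tests of window means and of Hox against other tiles are given as values without p. Software was R 4.3.3 (statmod 1.5.0, limma 3.58.1) and Python 3.11.15 (matplotlib 3.10.9, scipy 1.17.1, numpy 2.4.6, pandas 2.3.3).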

Additional observations from a re-analysis of the deposited data

Results flagged for a closer look

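Among the named tiles and the window means, the groups of 6 libraries of a cell type were searched for a library far from the other 5; chance flags about 1 in 20 groups, and 75 groups were searched (21 tiles and the 4 window means in 3 cell types). Retired libraries made up 6 of the 7 found. Tiles named for a large SD owe it in part to such libraries, so this count is no test. At chr6:52174001-52175000 these were retired progenitor (43.0%, 86 reads) and retired mature (22.7%, 66 reads). Upstream of Hoxa6, at chr6:52159001-52160000, it was retired mature (66.7%, 87 reads). In HoxB retired mature stood apart at chr11:96092001-96093000 (82.3%, 79 reads) and retired progenitor at chr11:96096001-96097000 (5.56%, 72 reads). In HoxC it was retired mature at chr15:102796001-102797000 (34.9%, 212 reads). The remaining one was week 9 virgin progenitor at chr2:74512001-74513000 upstream of Hoxd12 (9.21%, 369 reads).

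In 2 named tiles every pregnant library moved one way in one cell type and the opposite way in another. At chr6:52120001-52121000 pregnant libraries were higher than virgin ones in progenitor cells and lower in mature cells, effects that lie 15.1 points apart; that difference was not tested. At chr11:96148001-96149000 they were higher in stem and lower in mature cells, 4.14 points apart, with an adjusted p of 0.0837 for the difference in the quasi-binomial model.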

How the results depend on the processing

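In all, 813 alternative values of 44 results were computed. Of these, 758 kept the direction and the side of the threshold, 22 lost a call or fell short of the threshold, 15 counts moved and 18 turned direction. Many of the 758 had little room to change. Most counts were 0 in the main fit, and no pregnancy difference of a window mean could be called. For those differences without 1 library only the direction was compared. The 758 are therefore no measure of how firm the results are. The 22 include 5 of 6 fits of the HoxB cell type spread without 1 stage, whose planned permutation p is not printed. The call of chr11:96172001-96173000 in stem cells held with at least 10 reads (40.9 points), 500 bp tiles and without the most covered CpGs. Limma and thinned reads, the latter chosen after seeing the data, called 0 Hox tiles and 0 of all 77064 tiles. With any covered CpG the 1 called tile of 181 in Hox was another, chr15:102857001-102858000 (31.4 points). That setting called 468 of all 82324 tiles. The 4-column files called 2 others of 167 Hox tiles, chr11:96121001-96122000 (19.1 points) and chr15:102796001-102797000 (18.0 points). They called 332 of all 77064 tiles. Leaving out 1 library gave 0 to 2 Hox tiles, the second being chr15:102842001-102843000 (adjusted p = 0.0416 without mature week 3 or week 9), and 34.3 to 39.5 points at chr11:96172001-96173000. The call was lost in 10 of 18 such fits: without stem week 9 (adjusted p = 0.332), day 10 (0.228), day 16 (0.117) or day 19 (0.0540), and without progenitor week 3, week 9, day 10, day 16 or day 19 or mature day 16 (0.050 to 0.0560). Without stem day 19 the 1 call was chr11:96121001-96122000. Over all tiles the fits without 1 library called 0 to 1589, the 1589 being without mature week 3 or week 9. For the pregnancy effect in stem minus that in mature cells, the only Hox call was at chr11:96172001-96173000, in the fit without mature week 3. That fit leaves 1 virgin mature library and also called many tiles outside the Hox windows. It therefore cannot decide whether the cell types differ at this tile.

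In HoxB the spread of cell types was 1.38 points with any covered CpG, 1.18 points with pooled reads and 1.34 points without its most variable tile (added later), and 1.60 to 2.26 points without 1 stage. With any covered CpG the pregnancy difference turned to -0.862 points in HoxB mature, -0.0478 in HoxC progenitor, -0.704 in HoxC mature and -0.0222 in HoxD progenitor. Without 1 library it ran from -0.421 to 0.157 in HoxA mature, -0.924 to 1.25 in HoxB stem, -0.548 to 0.644 in HoxC progenitor and -0.311 to 0.736 in HoxC mature. In HoxD it ran from -0.161 to 1.42 in stem, -0.234 to 1.13 in progenitor and -0.180 to 0.376 in mature. By medians the Hox minus other difference turned to 2.30 points (10 to 19 CpGs) and 2.16 points (20 or more). The cause was not tested. No Hox promoter was called under any setting. The labels carry no replicate numbers. Cell types were compared with stage as a block, and 0 Hox tiles were called without it. A stage block for the pregnancy effect between cell types, added after seeing the data, called 0 Hox tiles of 0 in all, with adjusted p of 0.285 (stem minus progenitor) and 0.229 (stem minus mature) at chr11:96172001-96173000.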
